A study of Mus musculus with 7 samples.

Results

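The genes described here encode proteins that build ribosomes in the nucleolus: subunits of RNA polymerase I, proteins of the small nucleolar ribonucleoprotein particles (snoRNPs), and assembly factors of the small and the large ribosomal subunit. A list of 56 gene symbols was matched by name to the 24726 gene entries of the deposited tables, after removal of the tags that some entry names carry, and all 56 were found. The measurement is RNA sequencing of polyadenylated RNA from B-cell acute lymphoblastic leukaemia (B-ALL) of mice labelled C57BL/6, in 5 libraries. The 3 Pax5-Etv6 B-ALL libraries have the genotype Cdkn2ab+/-Pax5Etv6/+, that is a Pax5-Etv6 fusion on 1 Pax5 allele and a single remaining copy of Cdkn2a-Cdkn2b, and their source is unsorted lymph node used ex vivo. The 2 control B-ALL libraries have the genotype Trp53-/- NrasG12D/+, to which a Myc retrovirus was added, and their source is unsorted bone marrow kept in culture for a short time. No normal B cells enter the comparison, and the age of the mice is not analysed here.

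Ribosome production begins in the nucleolus, where RNA polymerase I copies the ribosomal DNA into a long precursor RNA. Box C/D and box H/ACA snoRNPs then methylate and pseudouridylate that RNA, a large particle called the small-subunit processome folds and cuts its 5′ part, and further factors shape the large subunit before both are exported. Growing and dividing cells make many ribosomes, and Myc is a well-known activator of both RNA polymerase I transcription and the genes of these factors.

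The 2 groups also differ in tissue, in culture and in the labelled cDNA protocol, and these cannot be told apart from genotype in any difference below. The labels call the Pax5-Etv6 libraries strand-specific and leave that field blank for the controls. Whole reads recovered from the values numbered from 20110795 to 50994959 per library, as lower bounds. Of the genes the genotypes name, Trp53 and Myc were read as a check on the labels: Trp53 stood at 454 to 490 TPM (transcripts scaled to the same total in each library) in Pax5-Etv6 B-ALL and at 11.3 and 20.5 TPM in the controls, and Myc at 286 to 387 against 1544 and 2095 TPM. The 8 B-lineage markers summed to 9416 to 11803 TPM against 3485 and 4838 TPM. Markers of other cells were higher in Pax5-Etv6 B-ALL: sums of 131 to 557 against 18.2 and 52.3 TPM for 10 macrophage genes, 33.4 to 277 against 0.487 and 0.381 TPM for 8 neutrophil genes, 314 to 997 against 80.5 and 91.7 TPM for 8 stromal genes, 16.6 to 173 against 5.26 and 5.66 TPM for 9 T-cell genes and 13.3 to 83.7 against 0.624 and 0.460 TPM for 5 erythroid genes. Of the tested markers 5 of 8, 8 of 8, 6 of 7, 3 of 4 and 2 of 2 in these lists were called higher, and none lower. Of all genes tested, 21.9% were called higher and 29.7% lower. Genes were tested if they reached 1 TPM in 2 or more libraries. All 8 neutrophil genes, Vcam1, Trac, Cd4, Cd5, Alas2, Slc4a1, Col3a1, Dcn and Pdgfrb did so only through Pax5-Etv6 libraries. For these genes a call of lower was not open. Lat, whose entry name carries a tag and which was not called, gave the largest share of the T-cell sum in each library, with 7.56, 125 and 160 against 4.60 and 4.83 TPM (adjusted p = 0.0602), while Cd3d, Cd3e and Cd3g, the defining T-cell markers, were at most 0.637 TPM in any library. Pecam1, an endothelial gene also found on blood cells, gave 233, 222 and 293 against 76.9 and 79.9 TPM of the stromal sums. Hbb-b1 was listed at 0 TPM in all libraries. The part of these cells in the results was not tested.

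Most of the ribosome biogenesis genes were lower in Pax5-Etv6 B-ALL, and none was higher. Of the 56, 48 fell (85.7%), none rose and 8 were not called, where a call is an adjusted p under 0.05 by limma over all genes tested. All 56 passed the filter on low values. Among all 11805 genes tested, 29.7% were called lower and 21.9% higher. The median log2 fold change of the 56 was -1.11, beside -0.11 over all genes tested, and it ran from -2.87 for Wdr75 to -0.0029 for Rrp12. A fall of at least 2-fold was called for 31 of the 56, beside 21.2% of all genes. In 49 of the 56 all 3 Pax5-Etv6 libraries lay below both controls, beside 40.1% of all genes. Nothing in the labels ties the replicates to different mice, and each p-value is therefore set only against the variation among these libraries. Because whole tissue was sequenced, fewer cells of a type and less RNA per cell cannot be told apart. All levels are of RNA, also where a protein or complex is named, and protein was not measured.

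Together the 56 genes held 0.691%, 0.659% and 0.645% of all TPM in Pax5-Etv6 replicates 1, 2 and 3, and 1.61% and 1.39% in control replicates 1 and 2. The groups were thus apart in the sum. All 56 genes lay above the median tested gene in mean level over the 5 libraries, between 34.8 TPM for Polr1e and 1003 TPM for Npm1. Within the Pax5-Etv6 group the highest library exceeded the lowest by a median of 1.15-fold, and within the control group by 1.18-fold. A range over 3 libraries and a range over 2 are not like measures, so these values do not compare the spread of the groups. Ebna1bp2 varied most in the Pax5-Etv6 group, by 1.91-fold, and Npm1 in the control group, by 1.94-fold. Control replicate 1 was the higher control in 31 of the 56 genes and replicate 2 in 25.

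**Figure D1:**
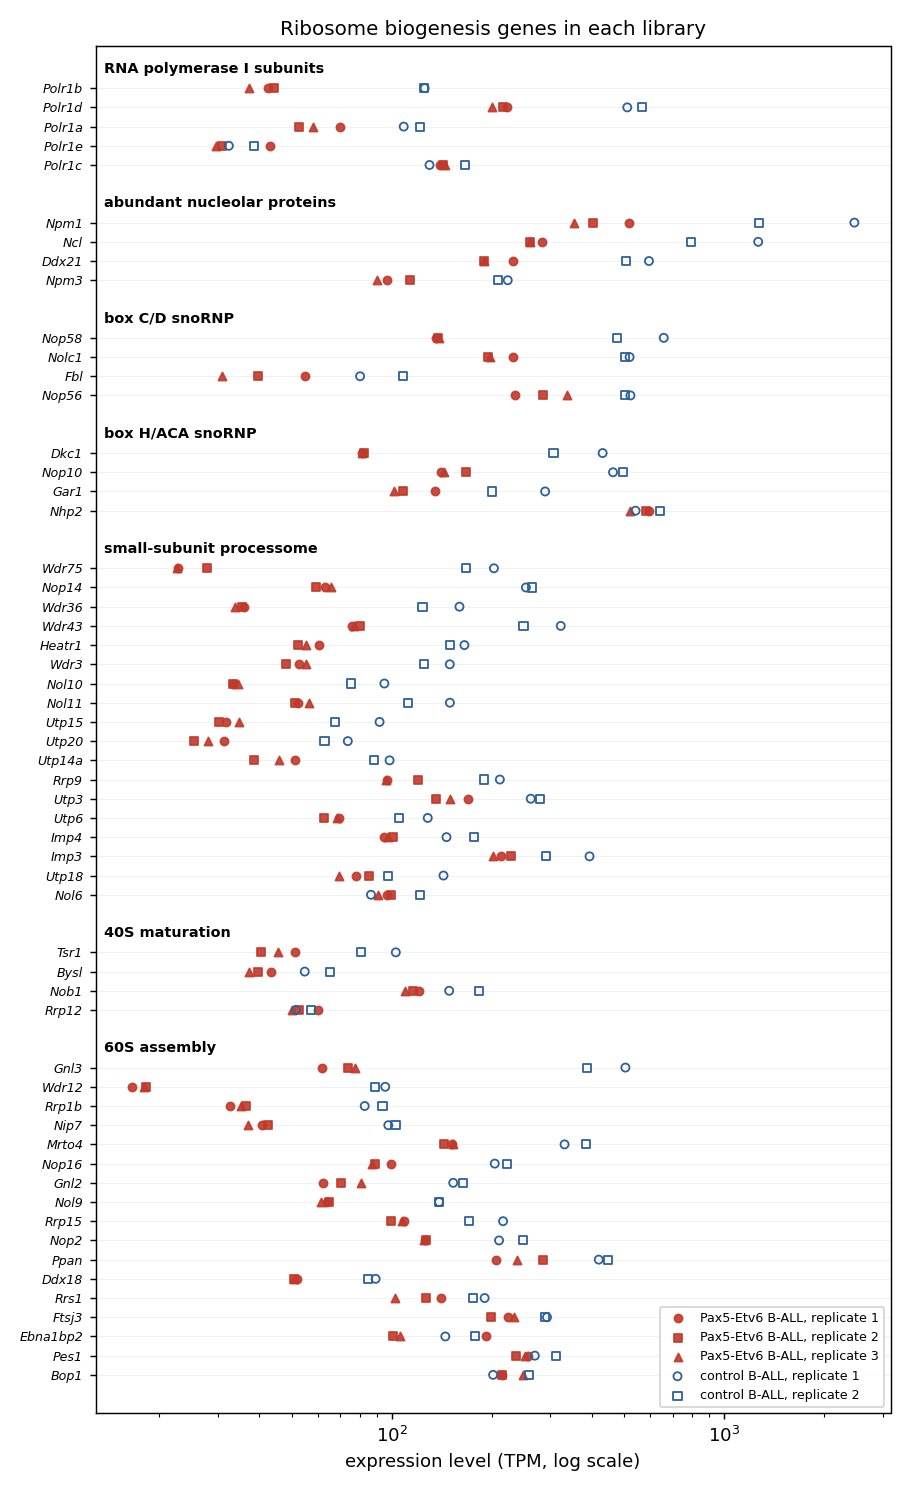
Level of each of the 56 genes in each library (x axis, TPM, log scale), grouped by role and ordered by fold change; filled red symbols are the 3 Pax5-Etv6 libraries and open blue symbols the 2 controls, and 40S and 60S are the small and the large ribosomal subunit. In 49 of the 56 rows all red symbols lie left of both blue ones.

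Among the 5 RNA polymerase I subunits, 3 fell and 2 were not called. Polr1b, which with Polr1a forms the catalytic centre, stood at 42.4, 44.3 and 37.1 TPM in Pax5-Etv6 replicates 1 to 3 and at 126 and 125 TPM in the controls (log2 fold change -1.58 ± 0.15 SE, adjusted p = 0.000805). The controls were close to each other, and the groups were well apart. The largest subunit, Polr1a, stood at 69.6, 52.5 and 58.1 against 109 and 122 TPM (-0.94 ± 0.17, adjusted p = 0.00604). Polr1d, a small subunit shared with RNA polymerase III, had 222, 216 and 200.4 against 511 and 566 TPM (-1.34 ± 0.13, adjusted p = 0.000894). Its partner in the shared subcomplex, Polr1c, had 140, 143 and 145 against 130 and 166 TPM (-0.04 ± 0.15, adjusted p = 0.83), so the Pax5-Etv6 values lay between the controls. Polr1e, which helps the enzyme to initiate, overlapped as well, at 42.9, 30.8 and 29.7 against 32.3 and 38.4 TPM (-0.05 ± 0.23, adjusted p = 0.863); its deposited name carries a tag that reads as overlap with another gene.

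The genes of the 4 abundant nucleolar proteins all fell. Npm1, or nucleophosmin, a histone and pre-ribosome chaperone that is mutated in human myeloid leukaemia, had 518, 402 and 354 TPM in Pax5-Etv6 B-ALL and 2467 and 1274 TPM in the controls (-2.08 ± 0.31, adjusted p = 0.00284). Even the lower control was well above the highest Pax5-Etv6 library, although the controls differed 1.94-fold. Without control replicate 1 the log2 fold change was -1.60 and without control replicate 2 it was -2.55, and it was called in both fits. Its relative Npm3 fell less, with 97.0, 114 and 90.3 against 223 and 209 TPM (-1.10 ± 0.15, adjusted p = 0.00231). Ncl, nucleolin, which binds nascent pre-rRNA, had 283, 262 and 261 against 1267 and 795 TPM (-1.90 ± 0.21, adjusted p = 0.00123). Ddx21, an RNA helicase of RNA polymerase I transcription and snoRNA handling, had 231, 189 and 189 against 594 and 506 TPM (-1.43 ± 0.16, adjusted p = 0.0012). RefSeq lists a pseudogene named after Npm3, which also has its own entry in the tables, 1 named after Fbl and 2 named after Mrto4, and reads shared with such copies make these genes' values uncertain.

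The genes of both kinds of snoRNP were lower in most cases, with 1 exception. In the box C/D particle, Nop58 had 136, 138 and 139 against 658 and 475 TPM (-2.02 ± 0.17, adjusted p = 0.000608), a very narrow Pax5-Etv6 group far below the controls. Nop56, its paired scaffold protein, had 236, 285 and 336 against 523 and 503 TPM (-0.86 ± 0.18, adjusted p = 0.00903). The methyltransferase Fbl, fibrillarin, had 54.8, 39.5 and 30.8 against 80.3 and 108 TPM (-1.18 ± 0.27, adjusted p = 0.013). The calls of these last genes were lost without control replicate 1 for Nop56 (adjusted p = 0.0563) and without control replicate 2 for Fbl (adjusted p = 0.0776). Nolc1, a chaperone of snoRNPs, stood at 232, 195 and 198 against 519.7 and 503 TPM (-1.30 ± 0.14, adjusted p = 0.00114). In the box H/ACA particle, Dkc1, the pseudouridine synthase dyskerin, had 81.5, 82.6 and 81.6 against 431 and 307 TPM (-2.14 ± 0.18, adjusted p = 0.00059). Nop10, which docks on dyskerin, had 141, 168 and 144 against 463 and 497 TPM (-1.67 ± 0.14, adjusted p = 0.000614), and Gar1 had 135, 108 and 102 against 289 and 200 TPM (-1.07 ± 0.21, adjusted p = 0.0077). Nhp2, the remaining core protein, was the exception, with 596, 581 and 520.1 against 542 and 641 TPM (-0.06 ± 0.15, adjusted p = 0.748). Nop56, Dkc1 and Nhp2 carry the overlap tag.

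Among the 18 genes of the small-subunit processome, 17 fell and 1 was not called, with a median log2 fold change of -1.25. The 5 genes of the list that belong to the UtpA complex, which binds the nascent transcript first, were all lower. Of these Wdr75 had the largest fall of the whole list, 7.59-fold between group means in TPM. It had 22.8, 27.9 and 22.6 against 203 and 168 TPM (-2.87 ± 0.18, adjusted p = 0.000391). No Pax5-Etv6 library came near a control. Wdr43 had 75.8, 80.4 and 77.1 against 323 and 249 TPM (-1.85 ± 0.16, adjusted p = 0.000614) and Heatr1 60.5, 52.2 and 55.2 against 165 and 150 TPM (-1.48 ± 0.15, adjusted p = 0.000892). Nol11 and Utp15 fell by 1.27 and 1.26 (adjusted p = 0.00223 and 0.00313). Of the UtpB complex, which joins the particle next, Wdr36 had 36.0, 35.4 and 33.8 against 160 and 124 TPM (-1.97 ± 0.17, adjusted p = 0.000627) and Wdr3 fell by 1.38 (adjusted p = 0.00127), and both carry the overlap tag. Their partners moved less: Utp6 fell by 0.79 (adjusted p = 0.00767), and Utp18 had 78.1, 85.5 and 69.4 against 143 and 97.2 TPM (-0.60 ± 0.21, adjusted p = 0.0491). The Utp18 call rests close to the threshold and was lost in 10 of 14 alternative fits. These include leaving out any Pax5-Etv6 library (adjusted p = 0.0737, 0.0745 and 0.133 without replicates 1, 2 and 3) or control replicate 1 (adjusted p = 0.216, log2 fold change -0.32).

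Other processome genes spread over a similar range. Nop14, which holds the particle's central domain, had 63.0, 59.1 and 65.8 against 253 and 265 TPM (-2.03 ± 0.14, adjusted p = 0.000413). Nol10, the scaffold Utp20, the helicase activator Utp14a, the box C/D-associated Rrp9 and Utp3 fell by 1.30, 1.24, 1.05, 0.95 and 0.84. Adjusted p-values of these 5 were between 0.00189 for Nol10 and 0.00514 for Utp3. Imp3 and Imp4, partners that guide pairing of snoRNA and pre-rRNA, were only modestly lower, with 214, 229 and 202 against 394 and 291 TPM for Imp3 (-0.66 ± 0.17, adjusted p = 0.0194) and 95.0, 101 and 97.5 against 146 and 177 TPM for Imp4 (-0.71 ± 0.15, adjusted p = 0.00864). The Imp3 call was lost without Pax5-Etv6 replicate 3 (adjusted p = 0.0638) or control replicate 1 (adjusted p = 0.0733). Nol6, of the UtpC complex, was the uncalled member, at 96.8, 99.4 and 91.0 against 86.6 and 122 TPM (-0.10 ± 0.18, adjusted p = 0.66).

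Of the 4 factors of later small-subunit maturation, 3 fell and 1 was not called; their median log2 fold change was -0.54. Tsr1, a GTPase-like factor that blocks early use of the subunit, had 51.3, 40.4 and 45.5 against 103 and 80.9 TPM (-0.99 ± 0.19, adjusted p = 0.00636). Nob1, the nuclease of the last pre-rRNA cut, had 121, 116 and 109 against 149 and 183 TPM (-0.51 ± 0.15, adjusted p = 0.0295), and Bysl, or bystin, had 43.2, 39.6 and 37.1 against 54.7 and 65.0 TPM (-0.57 ± 0.17, adjusted p = 0.0314). The groups did not overlap in either gene, but the calls of Nob1 and Bysl were lost in 7 of 14 and 6 of 13 alternative fits. Without Pax5-Etv6 replicate 2, replicate 3 or control replicate 2 the adjusted p was 0.0914, 0.098 and 0.0834 for Nob1 and 0.109, 0.103 and 0.0942 for Bysl. Rrp12, an export factor, had 60.1, 52.6 and 50.1 against 51.5 and 57.1 TPM, with overlapping groups (adjusted p = 0.99). Tsr1 and Bysl carry the overlap tag.

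Of the 17 large-subunit assembly factors, 14 fell and 3 were not called, with a median log2 fold change of -0.87. Gnl3, nucleostemin, a nucleolar GTPase named for its abundance in stem cells, had 61.9, 73.7 and 77.5 against 505 and 387 TPM (-2.63 ± 0.18, adjusted p = 0.000421), a 6.28-fold difference between group means in TPM. Gnl2, a GTPase of the same family that prepares the particle for export, fell less, at 62.1, 70.3 and 80.8 against 153 and 163 TPM (-1.15 ± 0.16, adjusted p = 0.0024). The PeBoW complex of Pes1, Bop1 and Wdr12, needed to process the large-subunit pre-rRNA, was split. Wdr12 had 16.5, 18.2 and 18.0 against 95.6 and 88.8 TPM (-2.33 ± 0.17, adjusted p = 0.000476). Pes1 had 257, 236 and 252 against 269 and 313 TPM (-0.22 ± 0.14, adjusted p = 0.211), and Bop1 214, 215 and 248 against 202 and 259 TPM (-0.02 ± 0.16, adjusted p = 0.917). For Pes1 the groups lay close without overlapping, and for Bop1 they overlapped. Gnl2, Gnl3, Bop1 and Wdr12 carry the overlap tag.

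The remaining large-subunit factors fell by moderate amounts. Rrp1b, Nip7, Mrto4, Nop16 and Nol9, a polynucleotide kinase of pre-rRNA cutting, fell by 1.32, 1.30, 1.25, 1.20 and 1.12 (adjusted p from 0.00113 for Mrto4 to 0.00147 for Rrp1b). Mrto4, which holds the place of a stalk protein, had 152, 144 and 153 against 331 and 385 TPM. Nop2, an rRNA methyltransferase, had 126, 127 and 125 against 210.4 and 248 TPM (-0.85 ± 0.14, adjusted p = 0.00375), and the helicase Ddx18 had 52.0, 50.8 and 50.7 against 89.4 and 85.0 TPM (-0.76 ± 0.14, adjusted p = 0.00599). Rrp15 and Ppan fell by 0.87 and 0.84 (adjusted p = 0.00534 and 0.0083). The smallest called falls were those of Rrs1, at 141, 126 and 102 against 190.3 and 176 TPM (-0.58 ± 0.18, adjusted p = 0.0323), and Ftsj3, at 224, 199 and 233 against 293 and 289 TPM (-0.42 ± 0.14, adjusted p = 0.0426). Each of these 2 calls was lost in 9 of 14 alternative fits. Without Pax5-Etv6 replicate 2 or 3, or control replicate 1 or 2, the adjusted p of Rrs1 was 0.0756, 0.0936, 0.135 and 0.0694. That of Ftsj3 exceeded the threshold without any 1 of the 5 libraries, between 0.0708 without Pax5-Etv6 replicate 1 and 0.176 without Pax5-Etv6 replicate 2. Ebna1bp2, whose name carries the overlap tag, was not called. Pax5-Etv6 replicate 1 stood apart from its group, at 193 TPM, against 101 and 106 TPM in replicates 2 and 3 and 145 and 178 TPM in the controls (-0.33 ± 0.30, adjusted p = 0.379). Without that library it was called lower (-0.63, adjusted p = 0.0269).

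**Figure D2:**
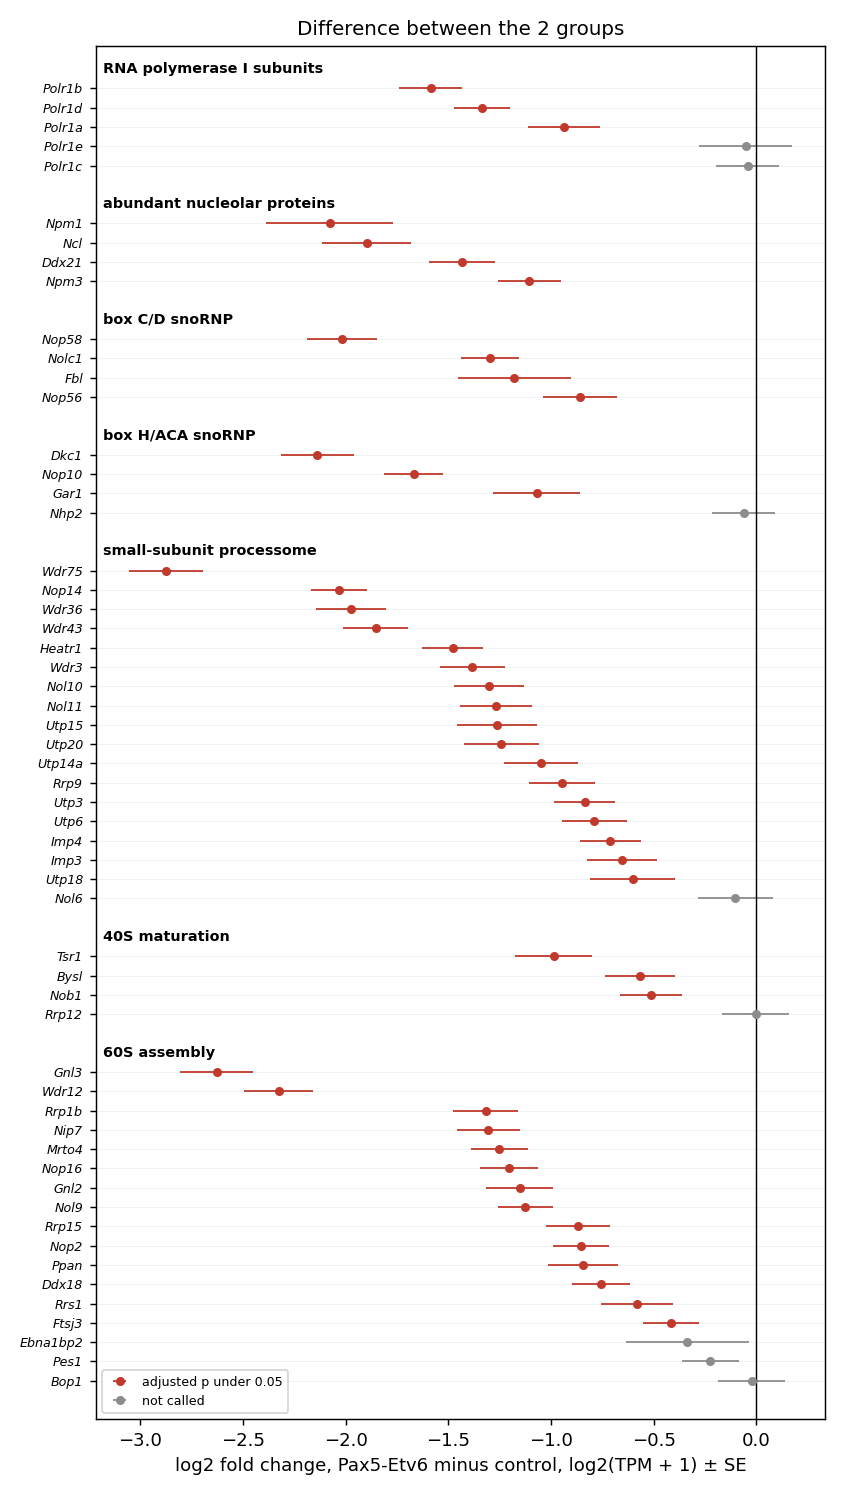
Log2 fold change of each gene (x axis, Pax5-Etv6 minus control on log2(TPM + 1), bars are the SE of the fit), in red where called and grey where not, grouped by role. The 48 called genes all lie left of 0, from Wdr75 at -2.87 to Ftsj3 at -0.42.

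Genes with and without the overlap tag were counted separately, since a strand-specific and another protocol can treat overlapping genes differently. Of the 42 genes without the tag, 38 were lower and 4 not called (median -1.15), and of the 14 with it, 10 were lower and 4 not called (median -1.02). The share of lower genes among all genes tested, 29.7%, was not taken separately for genes with and without the tag. Whether the difference in these counts lies with the tag or with the listed genes was not tested. The part of overlapping reads in the tagged genes was not tested either.

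Pairs of partners in a complex, or of one protein family for Gnl3 and Gnl2, were compared by their proportions, several of which differed between the 2 groups. These pairs were chosen after the values were seen, so their ratios are a description with no test. The ratio of Dkc1 to Nhp2 in TPM was 0.137, 0.142 and 0.157 in Pax5-Etv6 B-ALL and 0.796 and 0.478 in the controls. That of Wdr12 to Pes1 was 0.0642, 0.0771 and 0.0715 against 0.355 and 0.284. That of Bop1 to Pes1 was only narrowly apart, at 0.833, 0.911 and 0.982 against 0.749 and 0.829. Within PeBoW, Wdr12 was thus the partner whose proportion differed most, 4.50-fold between group means. Nop58 relative to Nop56 was 0.577, 0.484 and 0.413 against 1.26 and 0.945, Polr1d relative to Polr1c 1.59, 1.51 and 1.39 against 3.94 and 3.42, and Gnl3 relative to Gnl2 0.997, 1.05 and 0.958 against 3.30 and 2.37. Not every pair was apart: Fbl relative to Nop56 was 0.232, 0.139 and 0.0917 against 0.154 and 0.214, and Imp3 relative to Imp4 was 2.25, 2.26 and 2.08 against 2.69 and 1.65. Both genes of a pair come from the same libraries, so depth is shared, and the ratios show unequal change only. Dkc1, Nhp2, Wdr12, Bop1, Nop56, Gnl3 and Gnl2 carry the overlap tag. Among the ratios above that were apart, only that of Polr1d to Polr1c holds no tagged gene. The part of the cDNA protocol in these ratios was not tested.

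**Figure D3:**
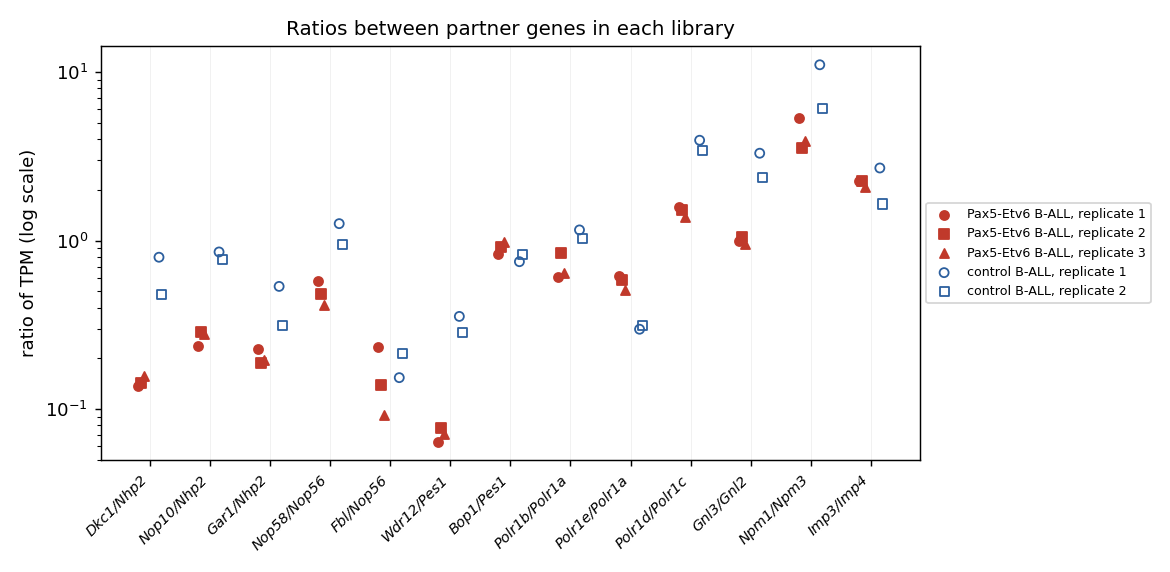
Ratio of TPM between 2 genes in each library (y axis, log scale; filled red, Pax5-Etv6 B-ALL; open blue, control B-ALL). Dkc1/Nhp2 and Wdr12/Pes1 are the ratios that differ most between groups, while Fbl/Nop56 and Imp3/Imp4 overlap. Dkc1, Nhp2 and Wdr12 carry the overlap tag.

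Promoter sequences of these genes were read from RefSeq (build GRCm38.p6, not the build of the deposited files), in windows of 300 bases with 250 bases before and 50 from each annotated start. Windows were present for 47 of the 56 genes; Npm1, Fbl, Nol6, Wdr36, Utp6, Rrp12, Rrs1, Bop1 and Gnl2 had none in the table. The motifs searched on both strands were the canonical E-box CACGTG, which Myc with Max can bind, the ETS-family core CCGGAAGT, of the family that includes Etv6, and the palindromic core of the NRF1 site. No motif contains another. The E-box was in 8 of the 47 genes (17%), beside 12.1% of 8645 tested genes and 7.15% of all 32851 windows. The ETS core was in 13 of the 47 (27.7%), beside 9.65% of the tested genes and 3.89% of all windows, and the NRF1 site was in none, beside 2.58% of the tested genes. Among 42 genes called lower 7 held an E-box and 9 an ETS core, and among 5 that were not called 1 and 4 did. A match is a description of letters and not a bound site.

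The stretches below show where these letters lie in the E-box genes with the largest falls and, chosen after the search, in the 3 ETS-core genes with the largest falls. Capitals mark the motif. Stretches run 5′ to 3′ on the gene's strand, and motifs beyond the start are shown in 30 bases.
Wdr43, E-box, chr17:71616220-71616249, plus strand, 17 bases after the start: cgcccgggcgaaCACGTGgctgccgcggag
Nol11, E-box, chr11:107189382-107189481, minus strand, 43 bases before the start: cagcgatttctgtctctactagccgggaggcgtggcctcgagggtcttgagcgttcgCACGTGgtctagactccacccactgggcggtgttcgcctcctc
Utp20, E-box, chr10:88826765-88826794, minus strand, 37 bases after the start: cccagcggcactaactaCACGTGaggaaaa
Tsr1, E-box, chr11:74898092-74898121, plus strand, 24 bases after the start: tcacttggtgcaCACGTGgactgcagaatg
Nop2, E-box, chr6:125131766-125131882, plus strand, 60 bases before the start: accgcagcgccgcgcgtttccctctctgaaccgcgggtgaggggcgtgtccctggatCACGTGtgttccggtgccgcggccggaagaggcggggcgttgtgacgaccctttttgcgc
Heatr1, ETS core, chr13:12395302-12395374, plus strand, 16 bases before the start: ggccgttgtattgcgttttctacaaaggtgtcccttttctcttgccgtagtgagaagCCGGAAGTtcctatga
Wdr3, ETS core, chr3:100162383-100162412, minus strand, 7 bases after the start: cttccaatcggaCCGGAAGTggcgggtctc
Nip7, ETS core, chr8:107056717-107056838, plus strand, 103 bases before the start: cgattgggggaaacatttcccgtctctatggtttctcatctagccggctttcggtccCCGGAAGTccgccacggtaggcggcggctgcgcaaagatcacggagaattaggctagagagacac
The log2 fold changes of these genes ran from -1.85 for Wdr43 to -0.85 for Nop2, whereas Wdr75, Gnl3 and Wdr12, with the largest falls of the list, held neither motif in their windows.

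Other genes of the pathway, from a second list of 115 matched genes, also fell in most cases. Of these 79 were lower (68.7%), 3 were higher and 33 were not called, with a median log2 fold change of -0.88; of all tested genes 29.7% were lower and 21.9% higher. Small-subunit factors had 25 of 32 lower, large-subunit factors 28 of 44, the RNA exosome and spacer-processing genes 15 of 22 and snoRNP assembly genes 6 of 9. Further RNA polymerase I genes, initiation factors and the subunits Znrd1, Twistnb and Cd3eap together, had 5 of 8 lower. Lyar, a nucleolar growth regulator, had 157, 155 and 146 against 1114 and 963 TPM (-2.76 ± 0.14, adjusted p = 0.00037). Rpf2, a large-subunit factor, Taf1d, of the RNA polymerase I initiation complex and with an overlap tag, Sdad1 and the export adaptor Nmd3 followed with log2 fold changes of -2.59, -2.52, -2.40 and -2.35 (adjusted p from 0.000391 for Sdad1 to 0.00118 for Taf1d). The 3 genes that rose were Gltscr2, Rrp36 and Pih1d1, the last named after its value was seen. The higher count was 1 without Pax5-Etv6 replicate 2, where Rrp36 (adjusted p = 0.0562) and Pih1d1 (adjusted p = 0.0843) lost the call, and 6 without control replicate 2. Pih1d1 also lost it without Pax5-Etv6 replicate 3 (adjusted p = 0.0587) or control replicate 1 (adjusted p = 0.14). Gltscr2, a large-subunit factor also known as Nop53, had 1455, 1160 and 979 against 342 and 465 TPM (1.57 ± 0.23, adjusted p = 0.00257), so its groups were apart in the opposite direction. Rrp36 had means of 77.3 ± 4.17 (SD, n = 3) against 46.1 ± 8.6 TPM (SD, n = 2) (0.75 ± 0.17, adjusted p = 0.0131).

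**Figure D4:**
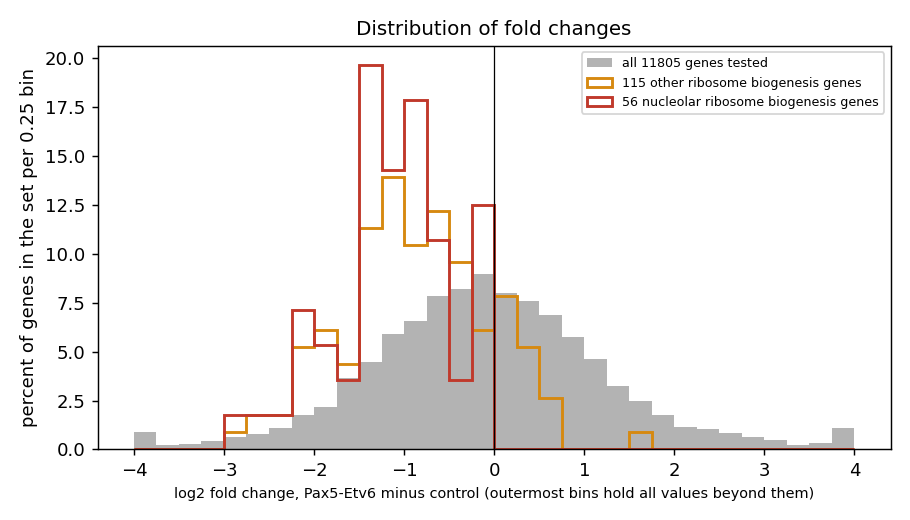
Distribution of log2 fold changes (x axis, Pax5-Etv6 minus control) as the percent of genes of each set per bin (y axis) for all 11805 genes tested (grey), 115 other ribosome biogenesis genes (orange) and the 56 genes described here (red). The red outline lies wholly left of 0, and the orange one reaches 1.57 (Gltscr2).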

How the data were processed

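The authors deposited TPM, 1 table for each library, with a sum of 1000000. The submitters' processing notes name build mm9, HTSeq 0.5.3 and DESeq2 1.4.1 without saying what each did. The aligner and gene models, not given in the sources used here, could change the values of overlapping or duplicated genes. The 2 chromatin immunoprecipitation samples were not analysed here. Values of 16538 of 16538 entries above 0 in 2 or more libraries were whole multiples of 1 read within a relative tolerance of 1e-09.

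The filter kept genes reaching 1 TPM in 2 or more libraries. The values, as log2 of TPM plus a pseudocount of 1, went into limma 3.58.1 under R 4.3.3 (lmFit, eBayes with trend; two-sided; group as the only term, which leaves 3 residual degrees of freedom), with Benjamini-Hochberg adjustment over all 11805 genes. Log2 fold changes, and the calls of at least 2-fold, are on this scale, which understates low genes. Replicates were numbered in accession order. The members, lists, motifs and tests were chosen with earlier results of these data known. All 56 members could be named, and of the other lists (other biogenesis genes, RNA polymerase II and III subunits, proliferation genes) the 6 called genes with the lowest and the 4 with the highest fold change. Promoters shown were to be those of at most 5 members with an E-box. Alternatives were other pseudocounts, filters and scalings, entries without a name suffix, no trend, voom on recovered reads, and leaving out each library. The fit was tested on simulated data.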

Additional observations from a re-analysis of the deposited data

How the results depend on the processing

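Each of the 14 alternatives left most of the 56 genes lower and none higher. The count of genes called lower was 42 to 48 with other settings, or 38 of the 42 without a name suffix, and 42 to 47 when 1 library was left out. Of the 48 called genes, 40 were called under every alternative that tested them. The calls lost at least once were those of Fbl, Nop56, Utp18, Imp3, Nob1, Bysl, Rrs1 and Ftsj3, with the same direction. Among the other biogenesis genes 64 of the 91 tested without a name suffix were lower, and 66 to 79 of 115 under the rest of the alternatives. The higher ones numbered 5 under quantile normalization instead of 3, and from 1, without Pax5-Etv6 replicate 2, to 6, without control replicate 2. The cause was not tested. For all genes, the shares of 29.7% lower and 21.9% higher belong to the main fit only. They were not taken for the alternatives, so the counts above have no such share beside them.

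Genes that were not called changed sign under some settings. Under median-of-ratios scaling the log2 fold changes were 0.029 for Polr1c, 0.020 for Polr1e, 0.0094 for Nhp2, 0.068 for Rrp12 and 0.048 for Bop1. Under quantile normalization they were 0.061 for Polr1c, 0.071 for Polr1e, 0.019 for Nol6, 0.11 for Rrp12 and 0.096 for Bop1. With voom they were 0.079 for Polr1c, 0.066 for Polr1e, 0.052 for Nhp2, 0.013 for Nol6, 0.11 for Rrp12 and 0.094 for Bop1. When libraries were left out in turn they ran from -0.22 to 0.13 for Polr1c, -0.21 to 0.070 for Polr1e, -0.18 to 0.060 for Nhp2, -0.35 to 0.14 for Nol6, -0.078 to 0.071 for Rrp12 and -0.20 to 0.16 for Bop1. The median of all tested genes moved from -0.11 to -0.040, -0.021 and 0.0062 under median-of-ratios scaling, quantile normalization and voom. No paired analysis was possible because the labels give no replicate numbers. With 2 controls, leaving out 1 assumes that the other varies like the Pax5-Etv6 libraries.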

Other observations

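RNA polymerase III-specific subunits numbered 11, of which 7 passed the test as lower and none as higher (median log2 fold change -0.73), with Polr3g at 5.34, 6.15 and 6.23 against 35.5 and 26.0 TPM. RNA polymerase II-specific subunits numbered 7, with 4 lower and 2 higher (median -0.43). Of all tested genes 29.7% were lower and 21.9% higher, and the difference between these lists was not tested. The catalytic pair of RNA polymerase II moved in opposite directions: Polr2a had 499, 398 and 461 against 168 and 238 TPM (1.17 ± 0.20, adjusted p = 0.00426), while Polr2b, whose name carries the overlap tag, had 78.0, 75.7 and 79.9 against 384 and 328 TPM (-2.17 ± 0.14, adjusted p = 0.000391). Polr2i, a small subunit, had 146, 161 and 163 against 65.7 and 87.6 TPM (1.03 ± 0.17, adjusted p = 0.00403).

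Among 16 genes of DNA replication and mitosis, 6 were called lower (37.5%, against 29.7% of all tested genes) and 1 higher (against 21.9% of all), with a median of -0.18. Their sums were 4617 to 5115 TPM in Pax5-Etv6 B-ALL against 5445 and 5305 TPM. The mitotic cyclin Ccnb1 had 23.3, 24.8 and 24.6 against 173 and 111 TPM (-2.47 ± 0.22, adjusted p = 0.000652). Aurkb, the gene called higher, had 378, 390 and 443 against 230 and 319 TPM (0.57 ± 0.18, adjusted p = 0.0386). Mki67, the proliferation antigen, had 249.7, 258 and 297 against 362 and 321 TPM (-0.35 ± 0.15, adjusted p = 0.0884). Polr3g, Polr2b, Mki67 and Aurkb were named after their values were seen.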
